A study of Mus musculus with 18 samples.

Results

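The transcripts of complement component C1q (C1qa, C1qb, C1qc), the C3 protein, the alternative pathway proteins factor B (Cfb) and properdin (Cfp), and the receptors C3ar1 and C5ar1 were examined in monocytes sorted from mouse spleen. The members were taken by gene name, 8 of the 55416 genes counted, and all 8 passed the filter on low counts that left 17040 genes for testing. The 18 libraries came from 6 groups of 3 mice, described in the design text as independent: wild-type (WT) mice of the C57BL/6 strain, mice with a Dectin-1 knockout and mice with an FcgRIIb knockout, each given phosphate-buffered saline (PBS) or intravenous immunoglobulin (IVIg, pooled immunoglobulin G used as an anti-inflammatory drug), with all samples labelled day 3. Clec7a encodes Dectin-1, a myeloid receptor for fungal beta-glucans, and Fcgr2b encodes FcgRIIb, the receptor for immunoglobulin G that inhibits cell activation. The series compared IVIg with PBS in each genotype. The deleted parts of the knocked-out genes, the dose and the age of the mice are not given in the sources used here. The titles carry codes of unknown meaning, and 3 codes each stand on 2 libraries: replicates 2 and 3 of Dectin-1 knockout PBS, replicates 1 and 2 of FcgRIIb knockout PBS, and, across genotypes, WT IVIg replicate 3 with FcgRIIb knockout PBS replicate 3. The last pair differs in genotype and treatment, so by the labels that code cannot mark 1 animal. Were the codes shared within a group to mark an animal, those PBS groups would hold fewer than 3 mice. The p-values of comparisons with them would then be too small.

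Complement is a cascade of plasma proteins that tags microbes, immune complexes and dying cells. C1q is assembled from A, B and C chains, recognises antibody bound to antigen, and starts the classical pathway; macrophages are a main source of it in the body. C3 is the protein on which all pathways converge: its cleavage gives C3b, which is deposited on surfaces, and C3a, which signals through the receptor encoded by C3ar1. Factor B is the enzyme of the alternative pathway convertase that cleaves C3, properdin stabilises that convertase, and the receptor encoded by C5ar1 binds C5a, the attractant released further down the cascade.

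The C1q genes lie side by side on the minus strand of chromosome 4 (GRCm39): C1qb (ENSMUSG00000036905) at 136607440 to 136613498, C1qc (ENSMUSG00000036896) at 136617115 to 136620376 and C1qa (ENSMUSG00000036887) at 136623228 to 136626114, within 18.7 kb. C3 (ENSMUSG00000024164) lies on chromosome 17 at 57510970 to 57535136, and Cfb (ENSMUSG00000090231) on the same chromosome at 35075350 to 35081494. C3ar1 (ENSMUSG00000040552) lies on chromosome 6 at 122824097 to 122833120, 6.61 Mb from Clec7a, the gene disrupted in the Dectin-1 knockout. C5ar1 (ENSMUSG00000049130) lies on chromosome 7 at 15980668 to 15993465 and Cfp (ENSMUSG00000001128) on chromosome X at 20791693 to 20797794. All 8 genes are on the minus strand.

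Promoter sequences are shown for C1qb and C1qc, whose transcripts varied together across libraries, and for C3, the most abundant member. They are RefSeq sequences of an earlier build than the counts (GRCm38.p6), reach from 250 bases before the transcription start to 50 bases after it, and are written in the direction of the gene. The RefSeq promoter table matched 6 of the 8 members, all but C1qa and Cfb. Capitals mark matches, on either strand, to 4 motifs of myeloid transcription factors: GAGGAA (PU.1), GAAANNGAA (IRF), TTGCNNAA (C/EBP) and TGANTCA (AP-1, whose reverse complement is the same motif).
C1qb, chr4:136886151-136886450, minus strand: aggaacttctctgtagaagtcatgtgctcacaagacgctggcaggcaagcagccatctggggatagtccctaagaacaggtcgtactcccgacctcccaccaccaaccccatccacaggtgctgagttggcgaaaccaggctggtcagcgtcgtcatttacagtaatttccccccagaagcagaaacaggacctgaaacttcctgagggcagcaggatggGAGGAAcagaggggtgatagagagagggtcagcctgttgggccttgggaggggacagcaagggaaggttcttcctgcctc
C1qc, chr4:136892865-136893164, minus strand: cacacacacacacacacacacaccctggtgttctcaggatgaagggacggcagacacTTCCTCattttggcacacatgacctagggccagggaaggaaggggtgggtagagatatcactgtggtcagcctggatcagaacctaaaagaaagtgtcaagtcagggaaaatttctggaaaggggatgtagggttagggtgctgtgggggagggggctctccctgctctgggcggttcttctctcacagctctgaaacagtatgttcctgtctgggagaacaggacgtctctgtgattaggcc
C3, chr17:57228087-57228386, minus strand: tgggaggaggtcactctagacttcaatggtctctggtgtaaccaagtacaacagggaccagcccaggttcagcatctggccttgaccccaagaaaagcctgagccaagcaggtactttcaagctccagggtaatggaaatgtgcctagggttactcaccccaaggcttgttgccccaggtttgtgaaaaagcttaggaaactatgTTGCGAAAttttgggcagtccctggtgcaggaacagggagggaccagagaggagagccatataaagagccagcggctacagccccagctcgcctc
The C1qb window held GAGGAA at position -30 from the start site, and the C1qc window held its reverse complement at position -193. The C3 window held a TTGCNNAA match at position -45. Of the 3 windows not shown, that of C3ar1 held TGANTCA at position -22, that of Cfp held the reverse complement of GAGGAA at positions 7 and 23, and that of C5ar1 held the reverse complement of GAAANNGAA at position -66. Among all 32851 promoter windows of 300 bases in the table, 28.3% held GAGGAA, 10.8% TTGCNNAA, 7.81% TGANTCA and 8.56% GAAANNGAA, so these matches are common and describe the letters alone.

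The shallowest library, FcgRIIb knockout PBS replicate 2, held 719494 counts, and the 17 deeper ones 16996494 to 48958909. In the shallowest library 3 counts equal 4.24 CPM, a unit that scales the count to the TMM-adjusted size of its library, against 0.0615 to 0.186 CPM in the others, so C1qa, C1qb, C1qc and C3ar1, all at 0 there, were not measurable at this depth. Clec7a stood at 0.247 to 4.05 CPM in the Dectin-1 knockout and at 360 to 956 elsewhere, while the range of Fcgr2b was 130 to 250 CPM in FcgRIIb knockout libraries and 208 to 318 in the rest. Of the genes that mark monocytes, Csf1r, the receptor of macrophage colony-stimulating factor, stood at 1420 to 2790 CPM and Lyz2, the lysozyme of myeloid cells, at 14600 to 35200 CPM. In the list of 12 genes of red pulp macrophages, the iron-recycling macrophages of the spleen, levels were unequal. Adgre1, which encodes F4/80, stood at 341 to 624 CPM, the haem-degrading enzyme Hmox1 at 96.9 to 185 and the receptor kinase Axl at 67.5 to 138, while Vcam1 stood at 4.32 to 21.2, Spic at 5.27 to 17.3, Cd5l at 0 to 4.82 and Timd4 at 0 to 1.15. WT IVIg replicate 2 also stood apart, with the lowest summed level of the 10 classical monocyte markers (5682 CPM) and the highest of the 12 non-classical markers (9044 CPM). Chil3 alone among the classical markers stood above its median there (2050 against 1540 CPM). Pou2f2 alone among the non-classical markers stood below its median, at 24.6 against 78.1 CPM. That library also had the highest summed level of the 8 dendritic cell markers (269 CPM), of which Flt3 alone gave 216 CPM. Batf3 alone among these markers stood below its median there, at 16.6 against 20 CPM. The summed level of 8 neutrophil markers was 503.5 and 1293 CPM in Dectin-1 knockout IVIg replicates 1 and 2, against 3.42 to 120.5 in the other 16 libraries.

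Per length of exon, the members spanned more than 2 orders of magnitude. C3 led, with a median of 181.5 CPM per kilobase over the 17 deeper libraries, and ranked 338 among the 17040 genes tested in its median library. Properdin followed at 72.4 CPM per kilobase and factor B at 16.8. The receptor gene C5ar1 (6.77), C1qb (6.54) and C1qa (5.04) formed a close group, then came C1qc (1.87) and, lowest, C3ar1 (0.579), all in CPM per kilobase. C3 exceeded Cfp in 17 of 17 libraries, though by a ratio that ranged from 1.01 to 5.06, and Cfp exceeded Cfb in 17 of 17 with ranges that did not overlap. Cfb exceeded C5ar1 in 16 of 17 libraries. The neighbours C5ar1 and C1qb (11 of 17 libraries) and C1qb and C1qa (13 of 17) exchanged places among libraries and did not differ beyond their spread. C1qa exceeded C1qc in 17 of 17 libraries, with a median ratio of 2.39, and C1qc exceeded C3ar1 in 17 of 17. The order of C1qa and C1qc rests on their annotated exon lengths, 1040 and 1931 bases. In CPM, not divided by length, C1qc was above C1qa in WT IVIg replicates 1 and 3. The same held in replicate 3 of Dectin-1 knockout PBS and of Dectin-1 knockout IVIg, and C1qa was above C1qc in the other deeper libraries.

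**Figure D1:**
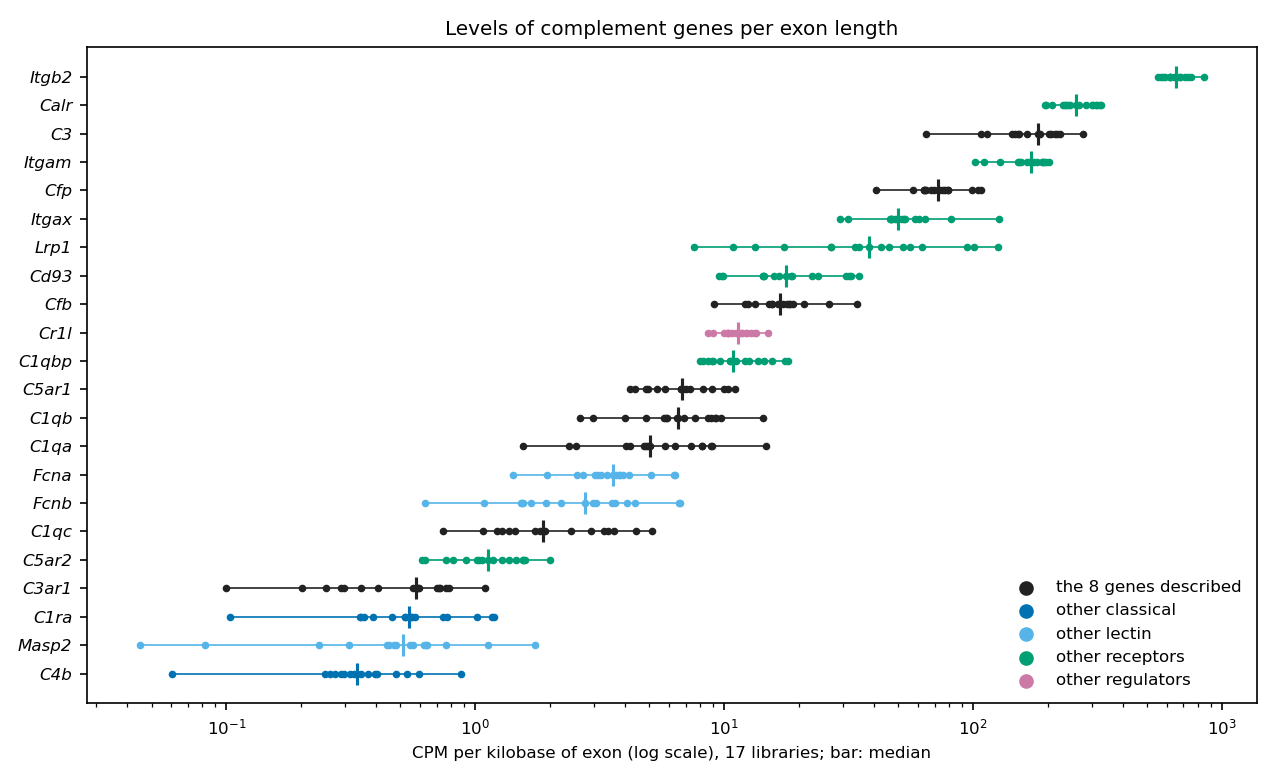
Levels of the 8 members (black) and of 14 of the 15 other complement genes with a median of at least 1 CPM, in CPM per kilobase of exon on a log axis, 1 point per library of the 17 deeper libraries with a bar at the median (1 value of 0 is not drawn). C3 and Cfp sit with the integrin receptor genes at the top, and C1qc and C3ar1 near the bottom.

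The C1q chains stood at low CPM beside C3, Cfp and Cfb, and their levels varied widely between libraries of a group. Per kilobase, C1qa ranked at percentile 59.4 of the tested genes in its median library, C1qb at 63.5 and C1qc at 41.2. C1qa stood at 4.18, 5.06 and 4.36 CPM in the WT PBS libraries and at 1.62, 15.3 and 2.46 in the WT IVIg libraries. It stood at 8.48, 8.5 and 2.64 CPM in the Dectin-1 knockout with PBS and at 9.28, 6.58 and 9.20 with IVIg. In the FcgRIIb knockout it stood at 6.00, 0 and 4.94 CPM with PBS and at 5.13, 7.62 and 5.24 with IVIg. The highest value belonged to WT IVIg replicate 2 and the next lowest after the shallow library to WT IVIg replicates 1 and 3, so that 1 group held both extremes and overlapped all the others. Its mean there was 6.47 ± 7.68 CPM (SD, n = 3), against 4.53 ± 0.465 in WT PBS.

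C1qb, the B chain, varied in a like way. It stood at 5.30, 6.43 and 7.01 CPM in WT PBS and at 2.86, 15.5 and 3.22 in WT IVIg. In the Dectin-1 knockout it stood at 10.1, 9.96 and 6.25 CPM with PBS and at 8.29, 7.12 and 9.62 with IVIg. The FcgRIIb knockout libraries stood at 7.47, 0 and 4.36 CPM with PBS and at 6.36, 9.38 and 10.6 with IVIg. C1qc, the C chain, lay between 1.43 and 9.90 CPM in the 17 deeper libraries, with the highest values in Dectin-1 knockout IVIg replicate 3 (9.90) and WT IVIg replicate 2 (8.56) and the lowest in FcgRIIb knockout PBS replicate 3 (1.43) and FcgRIIb knockout IVIg replicate 1 (2.07).

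**Figure D2:**
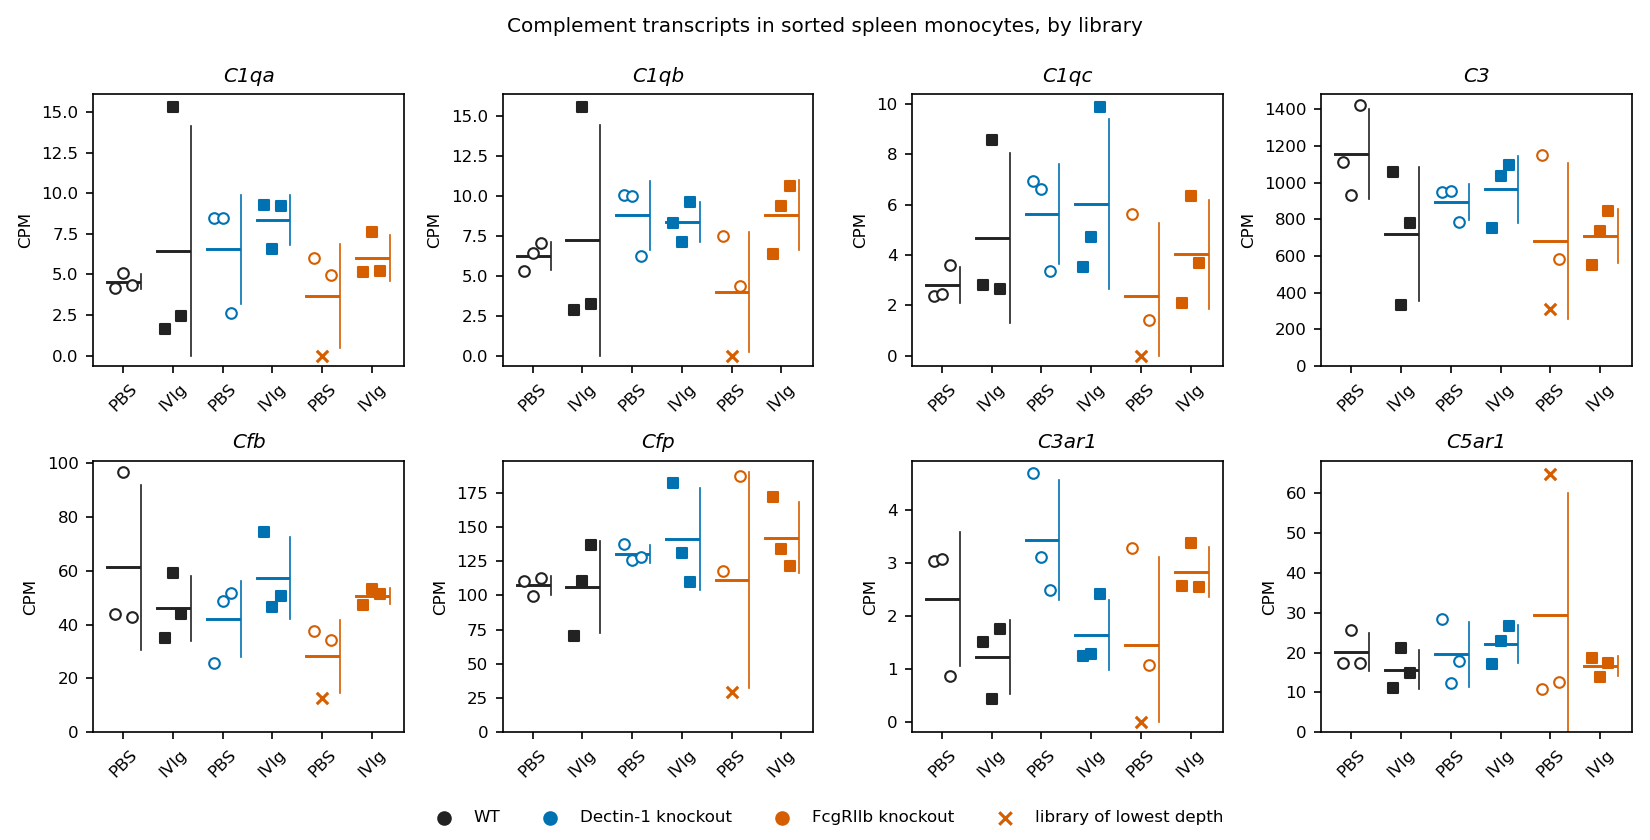
CPM of the 8 members in each library, by genotype (colour) and treatment (open circles PBS, filled squares IVIg), with the group mean (horizontal bar) and 1 SD either side, drawn from 0 upward (thin line), n = 3. The cross is the library of 719494 counts, and the C1q panels show WT IVIg replicate 2 above the other libraries of its group.

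The chains moved together across libraries. Over the 18 libraries, log2 CPM of C1qa and C1qb had a Pearson r of 0.976 (permutation p = 1e-05, adjusted 0.00018 over 36 relations) and a Spearman rho of 0.884 (p = 1e-05, adjusted 0.00036). The values were r = 0.951 (p = 1e-05, adjusted 0.00018) and rho = 0.856 (p = 3e-05, adjusted 0.00054) for C1qb and C1qc. For C1qa and C1qc they were r = 0.928 (p = 0.00015, adjusted 0.0018) and rho = 0.777 (p = 0.00024, adjusted 0.00288). A p of 1e-05 is the smallest that 100000 resamples can give. The shallow library, at 0 for all chains, set much of these r values: without the 2 libraries farthest from the median of C1qa (that library and WT IVIg replicate 1), r was 0.832 for C1qa and C1qb, 0.686 for C1qa and C1qc and 0.782 for C1qb and C1qc. Over the 17 deeper libraries r was 0.881, 0.652 and 0.741 for the same pairs and rho 0.863, 0.735 and 0.828, with permutation p adjusted to 0.00036, 0.0521 and 0.0104 for r and to 0.00072, 0.0146 and 0.00144 for rho. With the 17 deeper libraries centred on their group means, r was 0.913, 0.673 and 0.788 (adjusted permutation p = 0.00072, 0.0148 and 0.00072) and rho 0.752, 0.632 and 0.836 (adjusted p = 0.0117, 0.0923 and 0.00288). With the shallow library included, the centred r was 0.979, 0.923 and 0.951.

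Between chains the proportions were less even than the correlations. Per kilobase, the level of C1qa was 0.843 times that of C1qb in the median of the 17 deeper libraries, with a range of 0.442 to 1.19, and exceeded it in 4 of them. The level of C1qc was 0.31 times that of C1qb (0.183 to 0.579) and was below it in every one of the 17. These proportions depend on the annotated exon lengths, 1040, 1088 and 1931 bases for C1qa, C1qb and C1qc. The spread of C1qa over the 17 libraries was 52.6% of its mean (coefficient of variation), that of C1qb 40.7% and that of C1qc 54.1%. The median was 35.9% for the 2993 tested genes of 2 to 10 CPM. WT IVIg replicate 2, the highest library of C1qa (15.3 CPM) and C1qb (15.5 CPM), enters these values, and the spread without it was not computed.

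Macrophages of the spleen are rich in C1q, so the summed CPM of 12 red pulp macrophage markers was set beside the chains. That sum ranged from 654 to 908 CPM over the 18 libraries, and its group means from 771.8 to 830.4. Of its defining genes none was at 0 throughout: Cd5l was at 0 in 1 library and Timd4 in 2. The sum had r = 0.47 with C1qa (permutation p = 0.0365, adjusted 0.0782), 0.36 with C1qb (p = 0.138, adjusted 0.172) and 0.316 with C1qc (p = 0.208, adjusted 0.242), and rho was 0.404, 0.288 and 0.183 (adjusted p = 0.59, 0.59 and 0.781). Over the 17 deeper libraries r was 0.482, 0.251 and 0.122. Without the 2 libraries farthest from the median of the marker sum, r was 0.514, 0.437 and 0.427. Adgre1, Hmox1 and Axl made up 84.4% to 94.2% of that sum, so it hardly follows the scarcer genes. The sum of the other 9 genes, taken after the data were seen, ranged from 46.6 to 121 CPM. Over the 17 deeper libraries it had r = 0.417 with C1qa, 0.482 with C1qb and 0.777 with C1qc (adjusted permutation p = 0.366, 0.297 and 0.0027) and rho of 0.431, 0.529 and 0.718 (adjusted p = 0.342, 0.157 and 0.0133). Without its 2 farthest libraries r was 0.413, 0.373 and 0.629. Vcam1, an adhesion receptor in this list, stood at 16.6 CPM in WT IVIg replicate 2 and at 4.32 to 20.4 in the other deeper libraries. In bulk RNA fewer cells of a type and less RNA per cell cannot be told apart, and the part of macrophage RNA in the C1q levels was not tested.

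**Figure D3:**
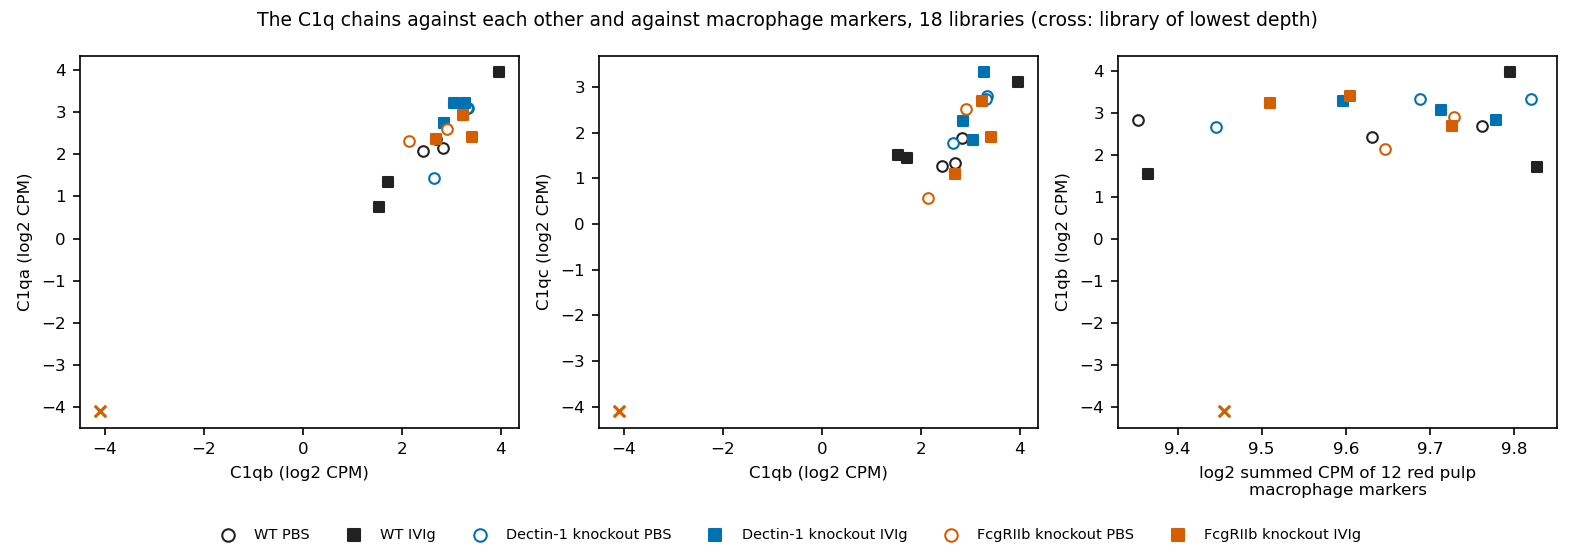
C1qa and C1qc against C1qb, and C1qb against the summed CPM of 12 red pulp macrophage markers, all in log2, 1 point per library (18 libraries; colour genotype, open circles PBS, filled squares IVIg, cross the shallow library). The chains line up with each other (r = 0.881 and 0.741 in the 17 deeper libraries), while C1qb shows r = 0.251 there with the marker sum, of which 3 abundant genes make up 84.4% to 94.2%, and 0.482 with the sum of the other 9.

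C3 was the most abundant member, with a coefficient of variation of 29.4% beside 33.1% in the median tested gene, which was not matched to its level. It stood at 1113, 934 and 1423 CPM in WT PBS and at 1057, 332 and 777 in WT IVIg. In the Dectin-1 knockout it stood at 949, 952 and 784 CPM with PBS and at 754, 1038 and 1098 with IVIg, groups that overlap. In the FcgRIIb knockout it stood at 1149, 312 and 586 CPM with PBS and at 553, 736 and 844 with IVIg. The 332 CPM of WT IVIg replicate 2, the library with the highest C1qa and C1qb, was the lowest of the 17 deeper libraries. The 312 CPM of the shallow library rests on 221 counts (95% Poisson interval 272 to 356 CPM, counting error only).

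Cfb, the convertase enzyme of the alternative pathway, had 1 outlying library. It stood at 44.0, 96.6 and 42.9 CPM in WT PBS, at 35.1, 59.1 and 43.9 in WT IVIg, at 25.8, 48.7 and 51.8 in Dectin-1 knockout PBS and at 74.5, 46.5 and 50.7 in Dectin-1 knockout IVIg. The values in the FcgRIIb knockout were 37.6, 12.7 and 34.1 CPM with PBS and 47.4, 53.3 and 51.3 with IVIg. All 3 FcgRIIb knockout PBS libraries lay below all 3 WT PBS libraries and below all 3 FcgRIIb knockout IVIg libraries. The Cfb counts are uncertain in level: 79.5% of its exon bases are shared with the gene model Gm20547 on the same strand, reads were counted for both, and the median counts were 1696 and 1688.

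Cfp, which encodes properdin, was the steadiest member, with a coefficient of variation of 23%. Its group means lay between 106.1 ± 33.5 CPM (SD, n = 3) in WT IVIg and 142.3 ± 26.3 in FcgRIIb knockout IVIg. The WT PBS libraries stood at 110.3, 99.7 and 112.6 CPM and the Dectin-1 knockout PBS libraries at 137.7, 125.6 and 128.1, without overlap. Over the other deeper libraries Cfp ranged from 70.5 to 187.0 CPM.

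By median CPM the receptor transcripts were below C3, Cfp and Cfb. Per kilobase, C5ar1 ranked at percentile 65.1 of the tested genes in its median library and C3ar1 at 25.6. C5ar1 stood at 17.5, 25.7 and 17.3 CPM in WT PBS and at 11.2, 21 and 14.8 in WT IVIg. Its deeper libraries in the knockouts ranged from 10.7 to 28.5 CPM, and the shallow library stood at 64.9 CPM on 46 counts (95% Poisson interval 47.5 to 86.6). C3ar1 stood at 3.03, 3.07 and 0.867 CPM in WT PBS and at 1.5, 0.430 and 1.75 in WT IVIg. It stood at 4.70, 3.11 and 2.49 CPM in Dectin-1 knockout PBS and at 1.24, 1.28 and 2.41 in Dectin-1 knockout IVIg, so that all 3 IVIg libraries lay below all 3 PBS libraries. The first 2 of those IVIg libraries, at 1.24 and 1.28 CPM, are those with the high neutrophil marker sums, whose part in this difference was not tested. In the FcgRIIb knockout it stood at 3.27, 0 and 1.08 CPM with PBS and at 2.56, 3.37 and 2.54 with IVIg. These levels rest on 20 to 155 counts per library in the 17 deeper libraries.

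None of the 8 members was called in any of the 10 comparisons by edgeR's quasi-likelihood test at a Benjamini-Hochberg adjusted p under 0.05. The smallest adjusted p of the 80 tests was 0.513, and 2 tests had an unadjusted p under 0.05. DESeq2 also called 0 members, with 2 at an unadjusted p under 0.05. The groups did not overlap in 5 of 56 pairwise member comparisons, beside 9.51% of such comparisons over all tested genes. By comparison they were 1 member each in the Dectin-1 knockout with IVIg (C3ar1, beside 8.8% of all genes), in the FcgRIIb knockout with IVIg (Cfb, 7.04%), in the Dectin-1 knockout against WT with PBS (Cfp, 16.3%) and in the FcgRIIb knockout against WT with PBS (Cfb, 11.6%) and with IVIg (C3ar1, 10.3%). No member was separated with IVIg in WT (6.33% of all genes) or in the Dectin-1 knockout against WT with IVIg (6.22%). The intervals below show how large a difference the spread between libraries allows.

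IVIg against PBS gave 0 called members in each genotype, beside 0.00587% of all tested genes in WT, 0% in the Dectin-1 knockout and 0% in the FcgRIIb knockout (2.52%, 3.26% and 3.19% at an unadjusted p under 0.05). In WT the log2 fold change of C3 was -0.68 ± 0.38 (SE, 95% interval -1.48 to 0.12, edgeR adjusted p = 1). The value for C3 was -0.33 without WT IVIg replicate 2 and -1.06 without WT IVIg replicate 1. C3ar1 gave -0.94 ± 0.55 (edgeR adjusted p = 1) in WT, or -0.51 without replicate 2, and -0.99 ± 0.53 (adjusted p = 1) in the Dectin-1 knockout. The latter was -0.51 ± 0.69 without the 2 libraries of high neutrophil marker sums, which leaves 1 library in that group, assumed to vary like those of the other groups. In the FcgRIIb knockout Cfb gave 0.58 ± 0.35 (edgeR adjusted p = 1), and the other 7 members lay between 0.01 (C3) and 0.63 (C1qb).

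The sign of the C1q difference in WT turned on 1 library. With all libraries the log2 fold changes with IVIg were 0.53 ± 0.56 for C1qa, 0.22 ± 0.46 for C1qb and 0.74 ± 0.54 for C1qc (SE, edgeR adjusted p = 1 each). Without WT IVIg replicate 2 they were -1.15 ± 0.46, -1.04 ± 0.38 and -0.05 ± 0.56, with unadjusted p of 0.0215, 0.0117 and 0.929 and adjusted p of 1 in edgeR. Averaged over the 3 genotypes, IVIg gave 0 called members (0% of all genes, 2.31% at an unadjusted p under 0.05). The average log2 fold changes were 0.34 for C1qa (95% interval -0.38 to 1.06), 0.26 for C1qb (-0.34 to 0.85), 0.39 for C1qc (-0.29 to 1.07), -0.19 for C3 (-0.65 to 0.27), 0.20 for Cfb (-0.20 to 0.60) and 0.07 for Cfp (-0.31 to 0.46). For the receptors they were -0.51 for C3ar1 (-1.20 to 0.17) and 0.02 for C5ar1 (-0.48 to 0.51). Without WT IVIg replicate 2 the averages of C1qa, C1qb and C1qc were -0.22, -0.16 and 0.12, and without FcgRIIb knockout PBS replicate 1 that of C1qc was 0.84 and that of C3ar1 -0.16. Differences of 2-fold with IVIg lay outside the interval for C3, Cfb, Cfp and C5ar1 in the average, also with any 1 library left out, and inside it for C1qa, C1qc and C3ar1. For C1qb they lay outside it with all libraries, but the upper bound was 1.11 without FcgRIIb knockout PBS replicate 1. The average joins Cfb values of opposite sign, -0.41 in WT against 0.43 and 0.58 in the knockouts. Within single genotypes 2-fold lay inside the interval of Cfb (WT -1.08 to 0.26, Dectin-1 knockout -0.24 to 1.11, FcgRIIb knockout -0.16 to 1.32). The same held for C5ar1 (-1.16 to 0.44, -0.61 to 1.01 and -0.76 to 1.17) and for C3 in WT (-1.48 to 0.12). It lay outside for Cfp in each genotype and for C3 in the knockouts.

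Between genotypes given PBS, 0 members were called in the Dectin-1 knockout against WT (0.0411% of all genes, and 4.05% at an unadjusted p under 0.05). C1qc gave a log2 fold change of 1.02 ± 0.54 (SE), C1qa 0.55 ± 0.58 and C1qb 0.49 ± 0.47 (edgeR adjusted p = 0.909 each). Cfp gave 0.28 ± 0.31, and Cfb -0.54 ± 0.32, which was -0.05 without WT PBS replicate 2 and -0.29 without Dectin-1 knockout PBS replicate 1. C3ar1, on the chromosome of Clec7a, gave 0.57 ± 0.49 with PBS and 0.52 ± 0.59 with IVIg. With PBS it was 0.18 without WT PBS replicate 3 and 0.28 without Dectin-1 knockout PBS replicate 1. With IVIg it was 0.094 without WT IVIg replicate 2, 0.063 without Dectin-1 knockout IVIg replicate 3 and 0.99 without the libraries of high neutrophil marker sums. In the FcgRIIb knockout against WT with PBS, again 0 members were called (0% of all genes, and 9.65% at an unadjusted p under 0.05). Cfb gave -0.86 ± 0.35 (edgeR unadjusted p = 0.0253, adjusted p = 0.513), and -0.36 without WT PBS replicate 2, the library of 96.6 CPM. C3 gave -0.71 ± 0.38, -0.42 without the shallow library and -1.30 without FcgRIIb knockout PBS replicate 1, where its edgeR adjusted p was 0.0903.

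**Figure D4:**
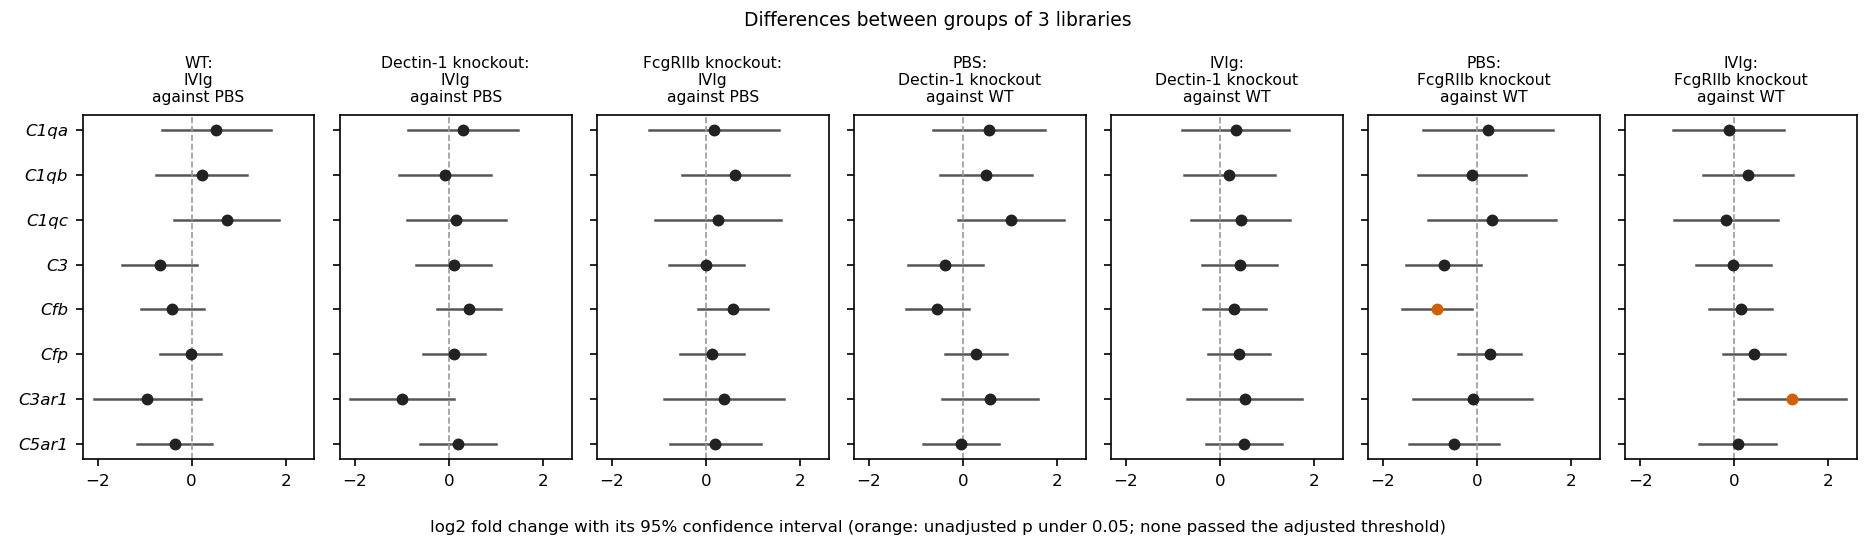
Log2 fold changes of the 8 members in 7 comparisons of 3 against 3 libraries, with 95% confidence intervals from the edgeR fit (1 panel per comparison, orange points an unadjusted p under 0.05). All intervals but those of Cfb in the FcgRIIb knockout against WT with PBS and C3ar1 in the same genotypes with IVIg cross 0, and 0 tests passed the adjusted threshold.

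Between genotypes given IVIg, 0 members were called in the Dectin-1 knockout against WT (0.0528% of all genes, 3.45% at an unadjusted p under 0.05) and 0 in the FcgRIIb knockout against WT (0.0117% and 5.44%). C3ar1 gave 1.23 ± 0.55 in the FcgRIIb knockout (SE, edgeR unadjusted p = 0.0382, adjusted p = 0.904), with all 3 knockout libraries above all 3 WT libraries. It was 0.80 without WT IVIg replicate 2. The C1q chains again depended on that library. In the Dectin-1 knockout against WT they gave 0.33 ± 0.55, 0.20 ± 0.46 and 0.44 ± 0.50 for C1qa, C1qb and C1qc with all libraries. Without WT IVIg replicate 2 they gave 2.01 ± 0.45, 1.46 ± 0.38 and 1.23 ± 0.53, with edgeR adjusted p of 0.236, 0.469 and 1. For the FcgRIIb knockout against WT they gave -0.12 ± 0.56, 0.29 ± 0.46 and -0.17 ± 0.53 with all libraries. Without WT IVIg replicate 2 they gave 1.56 ± 0.46, 1.55 ± 0.38 and 0.62 ± 0.55, with edgeR adjusted p of 0.68, 0.525 and 0.785. These comparisons share the WT IVIg libraries with the test of IVIg in WT.

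Whether the IVIg difference itself depended on genotype was tested as an interaction. It called 0 members for the Dectin-1 knockout against WT (0% of all genes, 3.75% at an unadjusted p under 0.05) and 0 for the FcgRIIb knockout against WT (0% and 2.86%). Cfb gave a difference between log2 fold changes of 0.84 ± 0.45 for the Dectin-1 knockout (SE, edgeR unadjusted p = 0.0788, adjusted p = 0.998). For the FcgRIIb knockout it gave 0.99 ± 0.48 (edgeR unadjusted p = 0.0505, adjusted p = 1). Without WT PBS replicate 2 these were 0.35 and 0.50.

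The wider pathway was described with 47 further complement genes. Of these 23 passed the filter, 15 had a median of at least 1 CPM and 7 were at 0 in all 18 libraries. Complement receptors made up most of the abundant ones: Itgb2 (median 1970 CPM), Itgam (855) and Itgax (245), the integrin chains of the receptors for fragments of C3b, and Lrp1 (649) and Calr (756), which bind C1q-coated material. Cd93, a lectin-like receptor of myeloid cells, stood at a median of 115 CPM. Among regulators, Cr1l, a membrane inhibitor of the convertases, had a median of 119 CPM. Of the partners that C1q needs to start the cascade, C1ra had a median of 1.59 CPM, C1s1 was at 0 in 14 libraries, C4b stood at 1.88 CPM and C2 at 0.941. Cfd, the protease that activates factor B, was at 0 in 15 libraries, Hc, which encodes C5, in 16, and the terminal genes C8b and C9 in all 18.

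None of the 23 tested genes among the 47 was called in any comparison by edgeR with all libraries. Other settings were examined for the 8 members only. From 0 to 3 of the 23 tested had an unadjusted p under 0.05 in a comparison. The 3 were in the Dectin-1 knockout against WT with IVIg (3.45% of all genes). With PBS 2 were in the Dectin-1 knockout against WT (4.05%) and 2 in the FcgRIIb knockout against WT (9.65%). A further 2 each were in the FcgRIIb knockout against WT with IVIg (5.44%) and in the interaction of the Dectin-1 knockout (3.75%). The other comparisons had 0 or 1. Cd93 had the smallest p, in the FcgRIIb knockout against WT with PBS. It stood at 184 ± 51.4 CPM in WT PBS and at 77.3 ± 16.3 in FcgRIIb knockout PBS (SD, n = 3 each). The log2 fold change was -1.22 ± 0.37 (edgeR unadjusted p = 0.00371, adjusted p = 0.503). The list's median log2 fold change ranged from -0.229 in the FcgRIIb knockout against WT with IVIg, beside -0.0163 over all tested genes, to 0.311 for the interaction of the Dectin-1 knockout, beside 0.000469. With IVIg it was -0.0435 in WT, 0.00508 in the Dectin-1 knockout and -0.128 in the FcgRIIb knockout, beside 0.00869, 0.0209 and 0.0102 over all genes. The medians of the 8 members in these 3 comparisons were -0.189, 0.135 and 0.229.

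Genes whose log2 CPM ran most like that of a member were named among 9153 genes with a mean of at least 5 CPM, by Pearson r as a description. For the mean of the C1q chains over the 18 libraries they were Ccnd2 (0.97), Mcm3 (0.961), Nosip, Fam234b, Scfd2, Rrn3, Adgrg5, Tmem140, Cyren and Cdca7l (0.951). This list rests on the shallow library, where 6 of the 10 were at 0, and only 1 of the 10, Ccnd2, was among the first 10 over the other 17 libraries. Over those 17, Vcam1, the adhesion receptor of the red pulp list, came first (r = 0.844), followed by the cyclins Ccnd1 (0.794) and Ccnd2 (0.787), with Slc40a1, the iron exporter of the same list, at 0.76. C3 ran most like Emilin2 (0.973), Rara (0.961) and Fn1 (0.954), and over 17 libraries like Notch1 (0.978), Fn1 (0.972) and Emilin2 (0.963), 2 of 3 in common. Fn1, fibronectin, belongs to the classical monocyte markers and had its lowest level, 479 CPM, in WT IVIg replicate 2, the library of lowest C3 among the 17.

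For the other members the most alike genes over the 18 libraries were Irf7 (0.845), Rmi1 and Hnrnpab for Cfb, Scand1 (0.954), Tomm6os and Cib1 for Cfp, Klhl9 (0.876), Tlr4 and Naa50 for C5ar1, and Nucb2 (0.909), Rmc1 and Stox2 for C3ar1. Over the 17 deeper libraries they were Suv39h1 (0.75), Cry1 and Cxcl9 for Cfb and Ndufc1 (0.914), Ndufb2 and Mrpl36 for Cfp. They were Dcaf12 (0.767), Gsr and Klhl9 for C5ar1 and Sema4a (0.739), Sgms2 and Ppp2r2a for C3ar1. Of these, 1 of 3 genes was shared between both sets for C5ar1 and 0 of 3 for Cfb, Cfp and C3ar1.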

How the data were processed

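Messenger RNA of sorted monocytes was sequenced in 18 libraries after a stranded library kit, per the labels' protocols. Per the submitters' processing notes, STAR aligned the reads to GRCm39. Per the file headers, featureCounts 2.0.2 gave raw counts of read pairs on Ensembl 104 genes, which the authors deposited with each gene's exon length in bases. The command counts a read for every gene it overlaps and sets no strand, so antisense and overlapping genes are not separated. The 18 deposited columns that matched no sample were not used, and 1492 genes without a symbol (0.125% to 0.45% of a library's counts) stayed in the totals.

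Genes passing filterByExpr were scaled by TMM and tested with edgeR 4.0.16 (quasi-likelihood F-test, R 4.3.3) in a model of 6 group means over 18 libraries (12 residual degrees of freedom), with Benjamini-Hochberg adjustment over 17040 genes within each of 10 comparisons. SE is the log2 fold change divided by the root of F, and log2 CPM uses a prior count of 2. Replicate numbers are those of accession order and serve as names. Counts of replicates always differed beyond sampling noise (a chi-square of 30.6 or more for each degree of freedom in 18 pairs). On simulated counts for the WT comparison (16374 genes, 200 changed 4-fold) edgeR recovered 84.5% with 20 false calls, and DESeq2 1.42.0 recovered 88% with 39. Smaller changes were not simulated, so these shares do not give the recovery of differences as small as those of the members.

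The text names all members, called genes of the wider list, the targeted genes and the most alike genes (10 for C1q, 3 for each other member). Cd93, the other complement genes given by level, and the promoter motifs were chosen after values were seen. A gene of the wider list is not reported here by name. Members and lists were chosen with earlier results of these data known. Figures were drawn with Python 3.11.15 and matplotlib 3.10.9.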

Additional observations from a re-analysis of the deposited data

Results flagged for a closer look

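The IVIg libraries of C3ar1, the C3a receptor, lay on opposite sides of their PBS means in 2 genotypes, on the CPM and on the log2 CPM scale. All 3 WT IVIg libraries lay below the mean of WT PBS, and all 3 FcgRIIb knockout IVIg libraries lay above the mean of FcgRIIb knockout PBS. The difference between the log2 fold changes was 1.32 ± 0.82 (SE, edgeR unadjusted p = 0.122, adjusted p = 1), so the test of the difference did not pass. It was 2.38 without FcgRIIb knockout PBS replicate 1, 0.78 without replicate 3 of that group and 0.85 without the 2 libraries that stand apart. The PBS group of the FcgRIIb knockout holds the shallow library, in which C3ar1 was at 0 and 3 counts correspond to 4.24 CPM.

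Cfb, which encodes factor B, showed such a pattern on the CPM scale alone. All 3 WT IVIg libraries lay below the WT PBS mean of 61.2 CPM, and all 3 IVIg libraries of each knockout lay above its PBS mean, 42.1 CPM in the Dectin-1 knockout and 28.15 CPM in the FcgRIIb knockout. Without the shallow library, at 12.7 CPM on 9 counts, the mean of FcgRIIb knockout PBS was 35.87 CPM. The difference between the log2 fold changes was 0.84 ± 0.45 for the Dectin-1 knockout (SE, edgeR unadjusted p = 0.0788, adjusted p = 0.998). It was 0.99 ± 0.48 for the FcgRIIb knockout (edgeR unadjusted p = 0.0505, adjusted p = 1). Without WT PBS replicate 2, the library of 96.6 CPM, these were 0.35 and 0.50.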

How the results depend on the processing

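No member was called in any comparison under any of 28 other settings (27 for the average over genotypes): DESeq2, RLE size factors, no low-count filter, a stricter one (1 CPM or more in 3 libraries), own groups only, the legacy form of the quasi-likelihood fit, mitochondrial, haemoglobin and immunoglobulin genes left out, the gene length trend removed, each of 18 libraries left out in turn, and, chosen after seeing the data, both libraries that stand apart (FcgRIIb knockout PBS replicate 2 and WT IVIg replicate 2) left out, as were both with high neutrophil marker sums (Dectin-1 knockout IVIg replicates 1 and 2). The smallest adjusted p of a member anywhere was 0.0903. Of the 80 fold changes 34 kept their direction in every setting, and all 13 that exceeded 1.5 times their SE did. Those 13 were picked by size in the same data and the settings refit the same libraries, so their kept direction is no independent support.

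The C1q fold changes turned with single WT IVIg libraries. With each library left out, IVIg in WT ranged from -1.15 to 0.98 for C1qa, -1.04 to 0.59 for C1qb and -0.050 to 1.03 for C1qc, and the average over genotypes from -0.22 to 0.49, -0.16 to 0.42 and 0.12 to 0.84. The Dectin-1 knockout against WT with IVIg ranged from -0.12 to 2.01, -0.18 to 1.46 and -0.15 to 1.23, and the FcgRIIb knockout against WT from -0.57 to 1.56, -0.081 to 1.55 and -0.64 to 0.62. Without both libraries that stand apart, IVIg in WT gave -1.15, -1.04 and -0.052, the FcgRIIb knockout against WT 1.55 for C1qa and 0.62 for C1qc, and the average -0.24 for C1qa and -0.18 for C1qb. Pearson's r of C1qa and C1qc lost its call without the shallow library (r = 0.652, adjusted p = 0.0521) and without both (0.581, adjusted p = 0.163), while Spearman's rho passed (0.735, adjusted p = 0.0146, and 0.688, adjusted p = 0.0384). The sum of 9 red pulp genes was formed after the data were seen, so its p-values are descriptive and not a test. Over the 17 deeper libraries C1qc had r = 0.777 with that sum (adjusted permutation p = 0.0027), while C1qa and C1qb did not pass. The r of C1qa with the full red pulp sum was 0.495 after centring on group means (adjusted permutation p = 0.0476). That p was the smallest of 7 settings, and without the shallow library the centred r was 0.493 (adjusted permutation p = 0.176).

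Counts of all genes called moved more. DESeq2 called 175 genes in the FcgRIIb knockout against WT with PBS and 13 with IVIg in the FcgRIIb knockout, where edgeR called 0, and 14 and 23 in the Dectin-1 knockout against WT with PBS and IVIg, where edgeR called 7 and 9. Leaving out single libraries gave 0 to 40, 0 to 1, 5 to 10 and 6 to 28 in these comparisons, 0 to 13 with IVIg in the Dectin-1 knockout and 1 to 6 in the FcgRIIb knockout against WT with IVIg. Without the libraries of high neutrophil marker sums the Dectin-1 knockout against WT with IVIg gave 5 called genes. No paired analysis was possible because the replicate numbers follow accession order and pair no libraries. Depth limits the low members: in the shallow library C1q and C3ar1 were at 0, where 3 counts equal 4.24 CPM. The upper Poisson bound of these zeros was 5.21 CPM, below the C1qb median of 7.06 CPM. With 3 libraries a group the 95% interval of the log2 fold change with IVIg in WT ran from -0.64 to 1.70 for C1qa and from -0.67 to 0.63 for Cfp.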
